A study of Mus musculus with 12 samples.

Results

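A set of 10 genes that carry and read out corticosteroid signals were followed in mouse adrenals: the receptors Nr3c1 and Nr3c2, the enzymes Hsd11b1 and Hsd11b2 that set the amount of active ligand inside a cell, the receptor cochaperone Fkbp5, and the hormone-responsive genes Tsc22d3, Sgk1, Zbtb16, Klf9 and Dusp1. They were taken by name, with no threshold on their measured values, and are 10 of the 39017 gene identifiers in the count table. All 10 passed the filter on low counts and were among the 14953 genes tested. RNA was sequenced from whole adrenals of 12 female mice aged 10 to 11 weeks on a mixed sv129-C57Bl/6 background. Each library was taken as 1 mouse, which is how the study counts them. The 6 control mice (Ctrl), titled wild type, have ASCre/+ as their labelled genotype, in which Cre is expressed from the aldosterone synthase locus and so acts in zona glomerulosa (zG) cells. The 6 βCat-GOF mice carried ASCre/+ together with Ctnnb1fl(ex3)/+, so that Cre removes the exon of 1 copy of the β-catenin gene that marks the protein for destruction, and those cells hold a stabilized β-catenin. The leading number of the mouse labels differs between Ctrl and βCat-GOF mice without exception, so whatever it stands for cannot be told apart from genotype, and among βCat-GOF mice it differs in mouse 5 only. βCat-GOF mice 1 and 2 share the stem of their label and were, of the βCat-GOF mice, each other's closest library by their counts. Ctrl mice 1 and 2 also share a stem, as do Ctrl mice 3 and 4, and in neither pair were the libraries each other's closest. This closeness is a chi-square of raw counts, which grows with library depth and was not scaled for it. If libraries that share a stem came from 1 mouse, the count of 6 mice a group would be too high. The question behind the comparison was what stabilized β-catenin does to the zG. Because whole glands were sequenced, a difference between genotypes cannot be told apart from a difference in the share of zG, zona fasciculata (zF), medulla, capsule, vessels and immune cells, and fewer cells of a type cannot be told apart from less RNA per cell.

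The glucocorticoid receptor and the mineralocorticoid receptor are hormone-activated transcription factors. Without hormone they wait in the cytoplasm in a complex with HSP90 and its cochaperones, and with hormone they enter the nucleus and bind response elements made of inverted half-sites. In most cells the mineralocorticoid receptor binds corticosterone as readily as aldosterone, and 11β-hydroxysteroid dehydrogenases decide locally how much corticosterone is active. The adrenal cortex makes both hormones, so its cells are exposed to concentrations far above those in blood. Adrenal corticosterone follows the time of day and acute stress, and the hour at which these adrenals were collected is not given in the sources used here.

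Response elements could be looked for in the RefSeq promoter windows (GRCm38.p6), each covering 250 bases before to 50 bases after a transcription start. For 7 of the 10 genes 14 such windows were examined, 6 of them for Sgk1. For Nr3c1, Hsd11b2 and Zbtb16 no window was examined, so the presence or absence of these motifs at their starts was not tested. The full inverted repeat, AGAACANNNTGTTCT, was present in 3 of all 32851 windows (0.00913%), and 1 of these 3 was a start of Sgk1, the serum- and glucocorticoid-regulated kinase. It began at position -189 from that start. The half-site AGAACA, on either strand, was in 4 of the 14 windows, 3 of Sgk1 and 1 of Tsc22d3, against 19.0% of all windows. The core of the cAMP response element, TGACG on either strand, was in 4 windows, 1 each of Tsc22d3, Sgk1, Klf9 and Dusp1, against 20.8% of all windows. In the Dusp1 window it occurred 3 times, and 2 of these matches overlapped on opposite strands at positions -143 and -140 to form the palindromic element. The E-box CACGTG was in 3 windows, 1 each of Fkbp5, Sgk1 and Dusp1, against 7.15% of all windows. The Sgk1 and Dusp1 windows are shown because they hold the densest matches. Capitals mark every match to these motifs, with the spacer of the inverted repeat included, and in the Sgk1 window an E-box and a half-site share bases at its start. A match of letters is a description of these windows and not a binding site, and the gene counts pool all starts of a gene.
Sgk1, chr10:21993640-21993939, plus strand: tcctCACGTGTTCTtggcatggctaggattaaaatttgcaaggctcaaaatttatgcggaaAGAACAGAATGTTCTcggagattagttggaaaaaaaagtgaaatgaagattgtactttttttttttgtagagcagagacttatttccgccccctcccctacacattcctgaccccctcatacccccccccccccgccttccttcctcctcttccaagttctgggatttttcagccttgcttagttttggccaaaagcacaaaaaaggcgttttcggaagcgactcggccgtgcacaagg
Dusp1, chr17:26508423-26508722, minus strand: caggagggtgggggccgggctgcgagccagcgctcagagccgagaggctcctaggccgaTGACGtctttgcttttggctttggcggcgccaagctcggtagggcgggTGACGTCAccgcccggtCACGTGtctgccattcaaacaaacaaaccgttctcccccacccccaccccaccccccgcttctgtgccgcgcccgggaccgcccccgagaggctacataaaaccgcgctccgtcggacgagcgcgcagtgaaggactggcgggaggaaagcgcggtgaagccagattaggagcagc

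The libraries held 14090378 to 25625494 gene counts in Ctrl mice and 13484675 to 24951480 in βCat-GOF mice. The transcript of Ctnnb1 itself was at 21620 ± 858 normalized counts in Ctrl and 21400 ± 1151 in βCat-GOF mice (SD, n = 6 each), and gene counts do not show whether the floxed exon was lost. Over all genes tested, 323 were higher and 228 lower in βCat-GOF mice at an adjusted p under 0.05 (edgeR quasi-likelihood test, Benjamini-Hochberg), and the median log2 fold change was 0.00. Of 8 zG markers 4 were higher, led by the angiotensin receptor Agtr1b, which rose 2.94-fold (log2 1.56, SE 0.25, edgeR adjusted p = 0.00413), followed by Vsnl1 and Agtr1a. Aldosterone synthase Cyp11b2, the defining zG gene whose locus carries the Cre, was not among them. It was at 2987 to 8035 normalized counts in Ctrl and 2056 to 9254 in βCat-GOF mice (log2 -0.18, 95% interval -0.96 to 0.60, edgeR adjusted p = 0.820), with mice 3 and 4 below every Ctrl mouse and mouse 2 above.

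None of the 10 corticosteroid genes passed an adjusted p of 0.05 in the edgeR test: 0 were higher, where 2.16% of all genes tested were, and 0 were lower, where 1.52% were. At an unadjusted p under 0.05 edgeR gave 3 higher (Dusp1, Fkbp5 and Sgk1), against 9.73% of all genes, and 1 lower (Hsd11b1), against 10.7%. The call depended on the tool. DESeq2 on the same counts called 2 of the 10 higher, Dusp1 and Fkbp5, where it called 3.98% of its 16901 genes higher, and it called 0 lower, where it called 3.32% lower. With the fold, adjusted p and base mean cut-offs of the study together, edgeR gave 0 of 10, where 2.35% of all genes passed, and DESeq2 again gave Dusp1 and Fkbp5, 2 of 10, where 3.79% of its genes passed. In none of the 10 genes did the normalized counts of the 6 βCat-GOF mice lie wholly apart from those of the 6 Ctrl mice, a separation that 2.78% of all genes showed. The median log2 fold change of the 10 was 0.11, with 6 above and 4 below 0. The shares of all genes given here are also the background for the counts of the gene lists below.

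**Figure D1:**
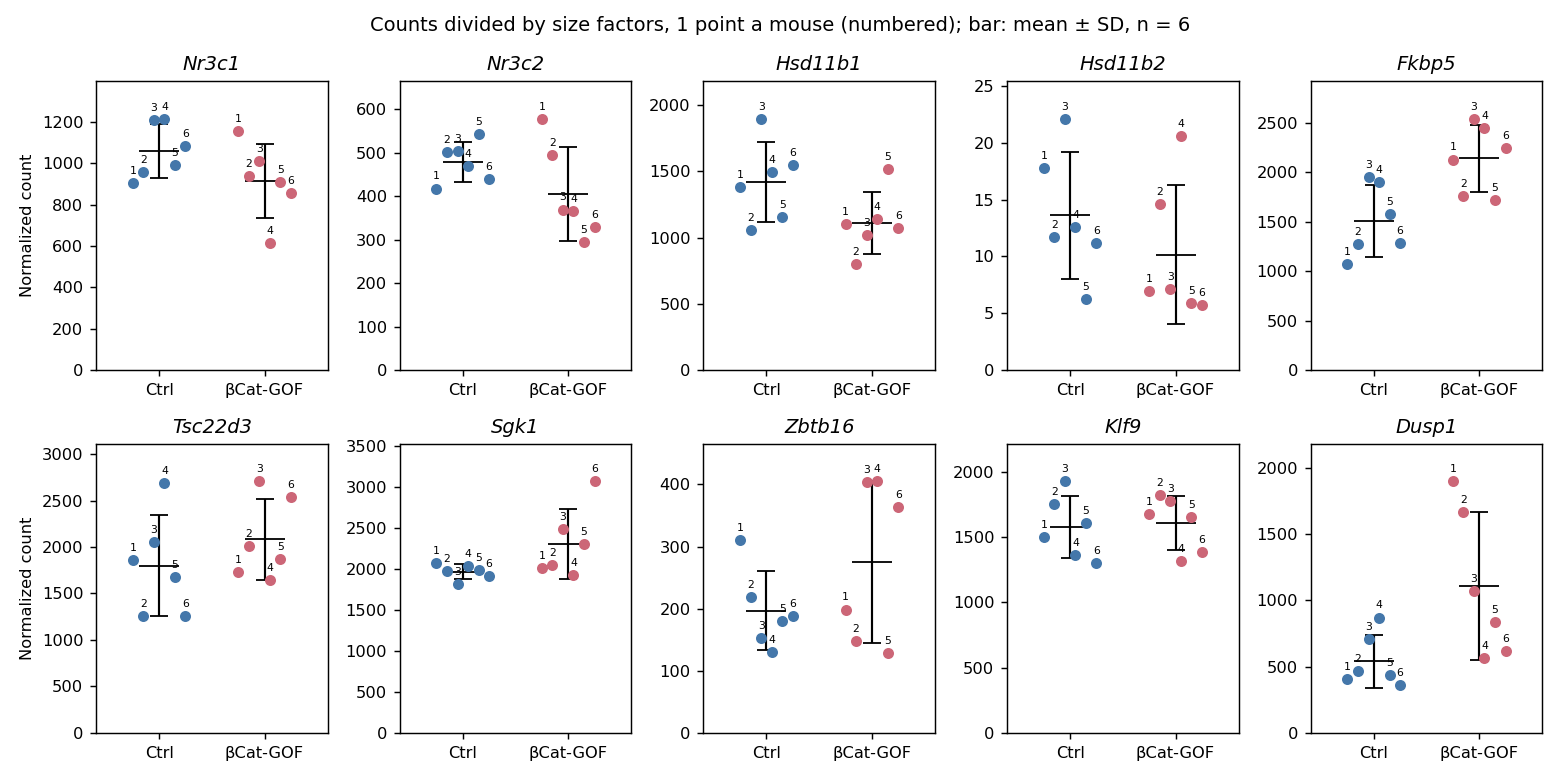
Normalized counts (counts divided by DESeq2 size factors) of the 10 genes in each mouse, with a linear axis from 0 in every panel, points numbered by mouse, and bars for the mean ± SD of 6 mice. In every panel the points of the genotypes overlap, and for Dusp1 βCat-GOF mice 1 and 2 stand highest, at 1895 and 1666.

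Per length of merged exon, Tsc22d3 and Sgk1 had the highest levels of the 10 in Ctrl adrenals. The level of Tsc22d3 was 20.7 ± 6.26 CPM (counts scaled to library size) per kilobase, and that of Sgk1 was 20.1 ± 0.986 (SD, n = 6). Hsd11b1 (16.7 ± 3.48) and Klf9 (16.4 ± 2.47) came next on the same scale, and the ranges of these 4 genes over the Ctrl mice overlapped from neighbour to neighbour. Dusp1 (8.17 ± 3.05), Fkbp5 (7.98 ± 1.92) and the glucocorticoid receptor Nr3c1 (6.89 ± 0.858) formed a middle group whose neighbouring ranges also overlapped, and Klf9 lay above Dusp1 in all 6 Ctrl mice. The mineralocorticoid receptor Nr3c2 was at 3.71 ± 0.374 CPM per kilobase, below Nr3c1 in all 6 Ctrl mice with no overlap of their ranges. Zbtb16 followed at 1.86 ± 0.594. Hsd11b2, at 0.370 ± 0.149 CPM per kilobase, was the lowest of the 10 and stood at percentile 8.15 of the genes tested, where Hsd11b1 stood at percentile 79.7. In βCat-GOF mice the order of the mean levels was the same for all but Hsd11b1 and Dusp1, with Dusp1 moving above Hsd11b1 and Klf9, at 16.7 ± 8.63, and Hsd11b1 moving below Klf9, at 12.97 ± 2.71. Mouse by mouse, Dusp1 lay above Klf9 in βCat-GOF mice 1 and 2 only, and above Hsd11b1 in mice 1, 2 and 3 only.

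**Figure D2:**
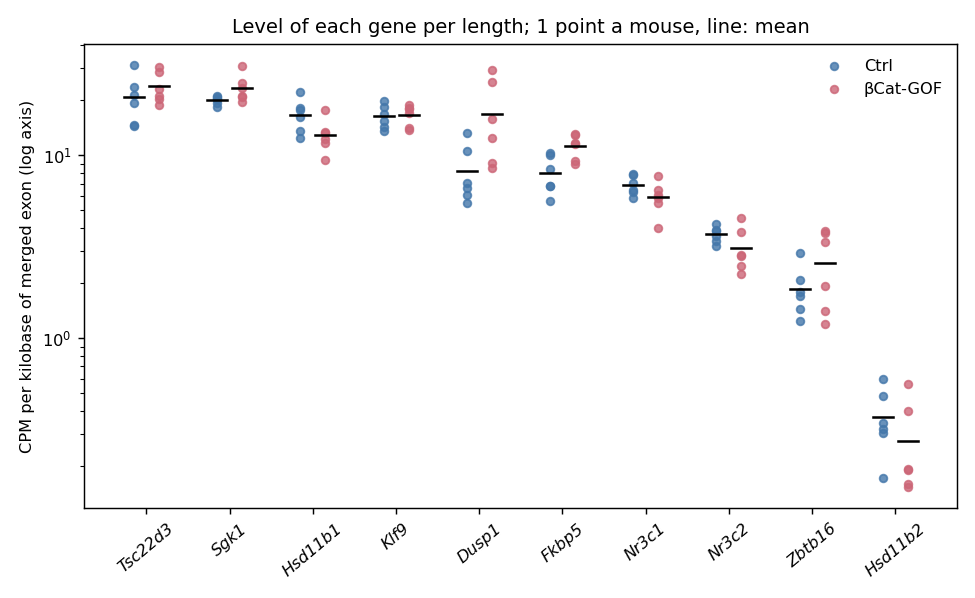
Level of each gene as CPM per kilobase of merged exon on a log axis, with 1 point a mouse and a line at the mean of 6 mice. Hsd11b2 lies far below the other genes in both genotypes, and Hsd11b1 is among the 4 highest in Ctrl mice.

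Both receptors were detected in every adrenal, and neither passed the edgeR or the DESeq2 test between genotypes. Nr3c1 encodes the glucocorticoid receptor. In Ctrl mice it ranged from 902.0 to 1214 normalized counts with a median of 1036, and in βCat-GOF mice from 612 to 1154 with a median of 924. The groups overlapped, with βCat-GOF mice 4 and 6 below every Ctrl mouse. The log2 fold change was -0.22 (SE 0.13, 95% interval -0.50 to 0.07, edgeR adjusted p = 0.384). Nr3c2, the mineralocorticoid receptor (chr8:76899442-77245012, GENCODE M21 on GRCm38), ranged from 418 to 544 normalized counts in Ctrl mice, with a median of 486. In βCat-GOF mice it ranged from 294 to 578, with a median of 368. βCat-GOF mice 3, 4, 5 and 6 were below every Ctrl mouse, βCat-GOF mouse 2 fell within the Ctrl range and mouse 1 was above it. Its coefficient of variation was 9.71% in Ctrl and 26.8% in βCat-GOF mice, where genes with a base mean over 100 had medians of 11.7% and 16.7%. Over all mice the log2 fold change of Nr3c2 was -0.24 (SE 0.16, 95% interval -0.59 to 0.10, edgeR adjusted p = 0.414). Without βCat-GOF mice 1 and 2, a choice made after the values were seen, it was -0.51 with an edgeR adjusted p of 0.0159. Those mice had the 2 highest βCat-GOF values of Nr3c2, so leaving them out had to lower the estimate. This p is therefore not a test of Nr3c2, and the same fit called more of all genes in both directions. Of the exon bases of Nr3c2, 3.82% overlap an antisense lncRNA (Gm10649), and the strand setting of the counts is not given in the sources used here.

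The enzymes that regenerate and inactivate corticosterone were at very unequal levels. Hsd11b1 (chr1:193221634-193264075) encodes the reductase that turns inert 11-dehydrocorticosterone back into corticosterone. Its normalized counts were 1054 to 1895 in Ctrl mice, with a median of 1437, and 802 to 1519 in βCat-GOF mice, with a median of 1085. In 5 of 6 βCat-GOF mice it was below the Ctrl median, 2 of them were below every Ctrl mouse, and βCat-GOF mouse 5 was exceeded by Ctrl mice 3 and 6 only. The log2 fold change was -0.37 (SE 0.16, 95% interval -0.70 to -0.03), with an unadjusted p of 0.0330 and an adjusted p of 0.202 by edgeR. Hsd11b2 (chr8:105518755-105523988), the oxidase that protects the mineralocorticoid receptor from corticosterone in kidney and other aldosterone target epithelia, was near the lower end of what was measured. It had 6.29 to 22.1 normalized counts in Ctrl mice (median 12.1) and 5.74 to 20.6 in βCat-GOF mice (median 7.06), and the groups overlapped almost fully. Its log2 fold change of -0.49 had a 95% interval from -1.32 to 0.34 (edgeR adjusted p = 0.506), so at these few counts a fall of the size of that lower bound could not be told from no difference.

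Fkbp5 was the member in which the most βCat-GOF mice exceeded every control. It encodes an immunophilin of the HSP90 complex that lowers the hormone affinity of the receptor, and glucocorticoids induce it in many tissues, which closes a short feedback loop. The gene lies at chr17:28399094-28517527. Normalized counts were 1069 to 1953 in Ctrl mice (median 1432) and 1723 to 2541 in βCat-GOF mice (median 2187). As many as 4 of 6 βCat-GOF mice were above every Ctrl mouse, and βCat-GOF mice 2 and 5 were within the upper Ctrl range. The means were 1510 ± 362 and 2140 ± 342 (SD, n = 6 each), a 1.41-fold difference (log2 0.49, SE 0.15, 95% interval 0.16 to 0.82). The edgeR adjusted p was 0.0961, the DESeq2 adjusted p was 0.0386, and an exact two-sided permutation test of this gene alone gave an unadjusted p of 0.0173. With each mouse left out in turn, the log2 fold change stayed between 0.42 and 0.59 and the edgeR adjusted p between 0.0576 and 0.189.

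Dusp1 had the largest fold difference of the 10 genes, with a coefficient of variation of 50.2% among βCat-GOF mice and 37.2% among Ctrl mice. It encodes a phosphatase that switches off MAP kinases, and it is induced both by glucocorticoids and, as an immediate early gene, by growth factors and stress. Its locus is chr17:26505590-26562128, and 0.332% of its exon bases overlap Ergic1 on the other strand. Normalized counts ran from 362 to 870 in Ctrl mice, with a median of 450, and from 566 to 1895 in βCat-GOF mice, with a median of 952. βCat-GOF mice 1, 2 and 3 were above every Ctrl mouse, while mice 4, 5 and 6 fell within the Ctrl range. The means were 541 ± 201 and 1108 ± 556 (SD, n = 6 each), a 2.05-fold difference (log2 1.04, SE 0.32, 95% interval 0.35 to 1.72). The edgeR adjusted p was 0.0915, the DESeq2 adjusted p was 0.0164 and the exact two-sided permutation test gave an unadjusted p of 0.0281. Without βCat-GOF mice 1 and 2, a choice made after the values were seen, the log2 fold change was 0.50 (edgeR adjusted p = 0.220). Those mice had the highest values of Dusp1, so leaving them out had to lower the estimate. This p is therefore not a test of Dusp1.

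Dusp1 was high in the same βCat-GOF mice as some immediate early genes, which are switched on within minutes of a stimulus, and not as others. Fos stood at 1891 and 853 normalized counts in βCat-GOF mice 1 and 2, and at 25.1 to 250 in the Ctrl mice and 47.5 to 145 in the other 4 βCat-GOF mice. Btg2 and Junb were also highest in βCat-GOF mice 1 and 2. The orphan receptor Nr4a1 was instead highest in mice 2 and 5, at 30320 and 20230 normalized counts, where Dusp1 of mouse 5 lay within the Ctrl range. In mouse 3, with Dusp1 above every Ctrl mouse, Fos was at 136. None of the 16 immediate early genes tested passed an edgeR adjusted p of 0.05 (0 higher, 0 lower). At an unadjusted p under 0.05 edgeR gave 8, all higher, where 9.73% of all genes tested were. DESeq2 called 2 higher, where it called 3.98% of its genes higher. Their median log2 fold change was 0.69, with 15 above 0, where that of all genes was 0.00. Fosb, a subunit of the AP-1 factor, had the smallest p of the list (log2 3.73, SE 0.98, edgeR adjusted p = 0.0515), and ranged from 11.7 to 44.96 normalized counts in Ctrl and from 12.7 to 1660 in βCat-GOF mice. Without βCat-GOF mice 1 and 2, a choice made after the values were seen, the median of the list was -0.03 with 6 of 16 above 0. Several genes of the list were highest in the mice left out, so this fall is not a test of the list. The part of this list in the Dusp1 difference was not tested. The summed level of the 17 listed immediate early genes was 803 to 1465 CPM in Ctrl and 882 to 4027 in βCat-GOF mice, with mouse 2 highest, then mouse 5 (2348) and mouse 1 (2158).

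**Figure D3:**
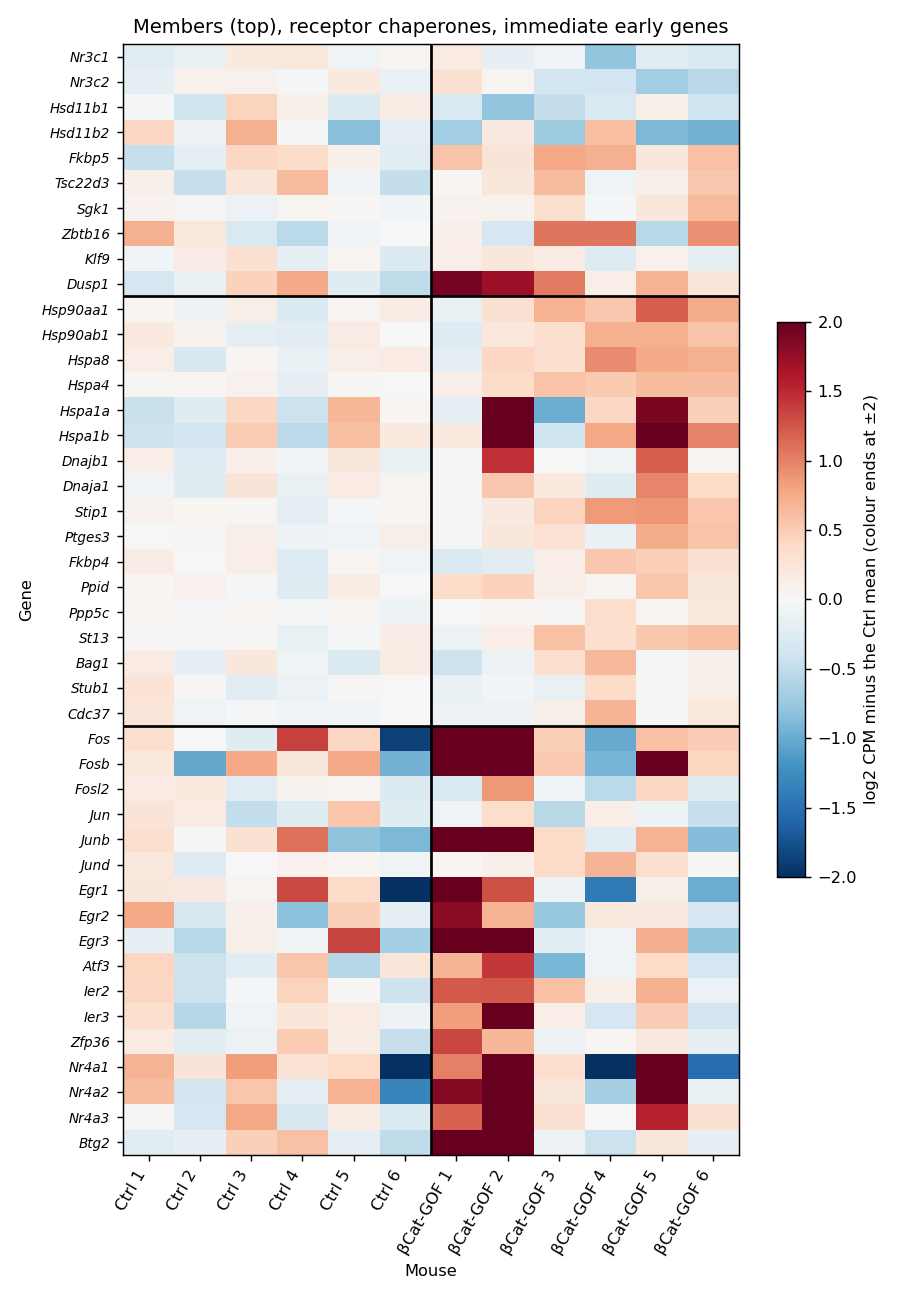
Colour shows log2 CPM minus the mean of the 6 Ctrl mice for each gene (rows) in each mouse (columns), for the 10 corticosteroid genes, the receptor chaperone list and the immediate early gene list. Dusp1 is darkest in βCat-GOF mice 1 and 2, as are Fos and Btg2, whereas Hspa1a, Hspa1b and Dnajb1 are darkest in mice 2 and 5.

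The remaining targets did not pass the edgeR or the DESeq2 test. Tsc22d3 (chrX:140539528-140600659) encodes GILZ, a leucine zipper protein through which glucocorticoids restrain inflammation. Its normalized counts were 1253 to 2692 in Ctrl mice (median 1766) and 1640 to 2705 in βCat-GOF mice (median 1938). The groups overlapped over nearly the whole range, and only βCat-GOF mouse 3 was above every Ctrl mouse. The log2 fold change was 0.20 (95% interval -0.19 to 0.59, edgeR adjusted p = 0.579).

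Sgk1 (chr10:21882184-21999903), the kinase that keeps the epithelial sodium channel at the cell surface, was the steadiest of the 10 in control adrenals. Normalized counts were 1814 to 2077 in Ctrl mice (median 1983), a coefficient of variation of 4.82%, and 1928 to 3068 in βCat-GOF mice (median 2178), a coefficient of variation of 18.4%. βCat-GOF mice 3, 5 and 6 were above every Ctrl mouse and the other 3 lay within the Ctrl range. The log2 fold change was 0.22 (SE 0.10, 95% interval 0.00 to 0.44), with an unadjusted p of 0.0475 and an adjusted p of 0.240 by edgeR.

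Zbtb16 (chr9:48654297-48836222), which encodes the zinc finger repressor PLZF, split the βCat-GOF mice. It was at 404, 405 and 364 normalized counts in βCat-GOF mice 3, 4 and 6, above every Ctrl mouse, and at 199, 148 and 128 in mice 1, 2 and 5. Ctrl mice ranged from 130 to 311, with a median of 184. The log2 fold change of 0.46 had a 95% interval from -0.19 to 1.12 (edgeR adjusted p = 0.415). Klf9 (chr19:23141226-23168134), a Krüppel-like factor induced by glucocorticoids and thyroid hormone, had the smallest estimated difference of the 10. It had 1305 to 1927 normalized counts in Ctrl mice (median 1556) and 1317 to 1822 in βCat-GOF mice (median 1666). Its log2 fold change was 0.02 with a 95% interval from -0.22 to 0.26 (edgeR adjusted p = 0.948).

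**Figure D4:**
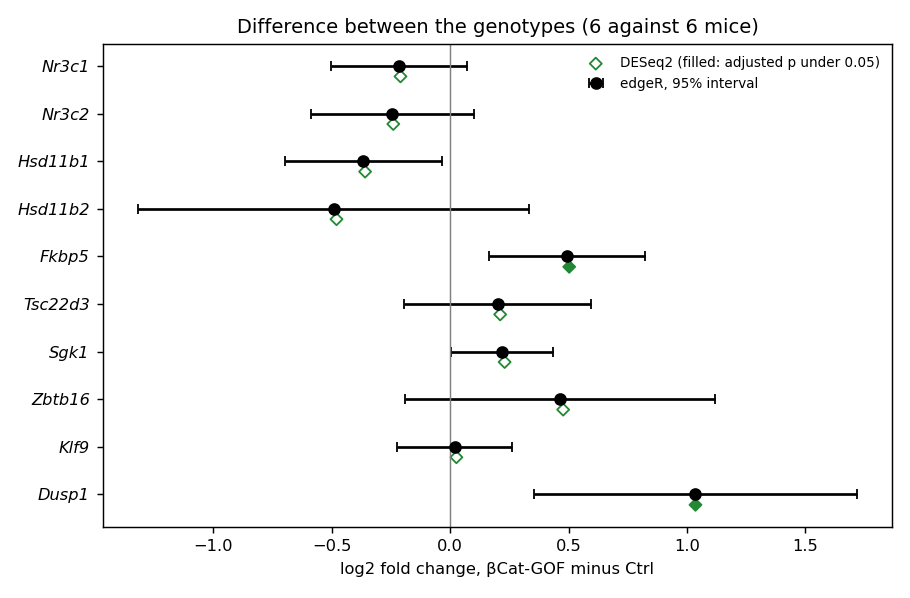
Log2 fold change of each gene, βCat-GOF minus Ctrl, with the edgeR estimate and its 95% interval in black and the DESeq2 estimate as a diamond, filled where its adjusted p was under 0.05. The estimates of both tools nearly coincide, and the filled diamonds are those of Fkbp5 and Dusp1.

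Several of the targets were high in the same βCat-GOF mice, and others were not. βCat-GOF mice 3 and 6 were above every Ctrl mouse for Fkbp5, Sgk1 and Zbtb16 and had the highest βCat-GOF values of Tsc22d3. Dusp1 was highest in mice 1 and 2. Among the βCat-GOF mice, the highest value was in mouse 3 for Fkbp5 and Tsc22d3, in mouse 6 for Sgk1, in mouse 4 for Zbtb16, in mouse 2 for Klf9 and in mouse 1 for Dusp1. Of the 45 pairs of the 10 genes, 6 had an unadjusted permutation p under 0.05 for Pearson's r of log2 CPM over the 12 mice, and 0 had an adjusted p under 0.05 (smallest adjusted p = 0.363, permutation test with Benjamini-Hochberg over the 45 pairs). The pair with the smallest p was Hsd11b2 and Sgk1, with r = -0.66 (permutation p = 0.0102, adjusted p = 0.363) and Spearman's rho = -0.63 (permutation p = 0.0316, adjusted p = 0.502). Its r was -0.30 within Ctrl and -0.73 within βCat-GOF mice, and -0.54 without the 2 mice farthest from the median of Hsd11b2. Next came 2 negative pairs of a receptor and a target. For Nr3c2 and Sgk1 r was -0.62 (permutation p = 0.0268, adjusted p = 0.363) and rho was -0.45. For Nr3c1 and Zbtb16 r was -0.61 (permutation p = 0.0278, adjusted p = 0.363) and rho was -0.46. Among Fkbp5 and the 5 responsive genes, 2 pairs had an unadjusted p under 0.05. For Fkbp5 and Tsc22d3 r was 0.59 (permutation p = 0.0461, adjusted p = 0.363) and rho was 0.50 (permutation p = 0.0989, adjusted p = 0.609). Within Ctrl mice its r was 0.63, within βCat-GOF mice it was 0.26, and without the 2 farthest mice it was 0.60. Fkbp5 and Dusp1 had r = 0.58 over all mice (permutation p = 0.0476, adjusted p = 0.363) and rho = 0.62 (permutation p = 0.0344, adjusted p = 0.502). This r was 0.84 within Ctrl and -0.31 within βCat-GOF mice, so the pooled relation did not hold within both genotypes, and it was 0.35 without the 2 mice farthest from the median of Fkbp5. Fkbp5 and Zbtb16 had r = 0.26 over all mice (permutation p = 0.404, adjusted p = 0.794). Their r was 0.94 within βCat-GOF and -0.92 within Ctrl mice, so the sign was opposite in the 2 genotypes. Each of these values rests on 6 mice, was picked from those of all 45 pairs, and was not tested.

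Genes whose profile over the 12 mice was most like that of each member were found among the 11430 other genes with a base mean over 100, by Pearson's r of log2 CPM as a description. Libraries, depth and composition are shared by all points. Fkbp5 was closest to Btbd9 (r = 0.95), Sema3c (r = 0.91) and Gna14 (r = 0.91). Of these, Btbd9 (log2 fold change 0.52, edgeR adjusted p = 0.0428) and Sema3c (1.14, edgeR adjusted p = 0.0105) rose in βCat-GOF mice. Dusp1 was closest to Tab2 (r = 0.93), Cldn11 (r = 0.93) and the leptin receptor Lepr (r = 0.92), of which Cldn11 (log2 fold change 1.09, edgeR adjusted p = 0.0317) and Lepr (1.62, edgeR adjusted p = 0.00646) rose. No immediate early gene was among these 3. Nr3c1 was closest to Gnpda2 (r = 0.97) and Nr3c2 to Ap3m2 (r = 0.94). Hsd11b1 was closest to genes of the large and small ribosomal subunits, Rpl15 (r = 0.97) and Rps18 (r = 0.93), with Gng11 between them. Sgk1 was closest to Ndufaf4 (r = 0.91), Zbtb16 to Drg2 (r = 0.94), Klf9 to Dynll2 (r = 0.90), Tsc22d3 to Capn7 (r = 0.84), and Hsd11b2, with its few counts, to Il18bp (r = 0.91).

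The 17 genes of the receptor chaperone list, which holds chaperones, cochaperones and factors that work with them, all had a log2 fold change above 0. Their median was 0.36, where that of all genes was 0.00. Of the 17, 1 passed the edgeR test, Hspa4, an HSP70-family nucleotide exchange factor, where 2.16% of all genes tested were higher. DESeq2 called 5 higher, where it called 3.98% of its genes higher. Hspa4 had 4955 to 5833 normalized counts in Ctrl mice and 5933 to 8573 in βCat-GOF mice, so that the groups did not overlap. It rose 1.39-fold (log2 0.47, SE 0.09, edgeR adjusted p = 0.0129). At an unadjusted p under 0.05 edgeR gave 11 of the 17, all higher, where 9.73% of all genes tested were. HSP90 itself, as Hsp90aa1, was at 5434 to 7310 normalized counts in Ctrl mice and at 5748 to 15010 in βCat-GOF mice, lowest in mouse 1 and highest in mouse 5. Over 21 alternative fits the number that passed ran from 1 to 7, and it differed from 1 in 5 of them. It was 7 without βCat-GOF mouse 1, which had the lowest summed level of the list among βCat-GOF mice. Of the fits that leave out 1 mouse, that one also called the most genes over all genes tested. Heat-inducible Hspa1b was at 3337 and 1758 normalized counts in βCat-GOF mice 2 and 5, and at 174 to 384 in Ctrl mice. Without mice 2 and 5, a choice made after the values were seen, the median of the list was 0.22, with 15 of 17 above 0. Hspa1b was highest in the mice left out, so this lower median is not a test of the list. The summed level of the list was 4444 to 5513 CPM in Ctrl and 4467 to 8087 CPM in βCat-GOF mice.

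In a list of 28 other genes that corticosteroids are known to induce or repress, none passed either test. Of these, 27 were tested, and edgeR called 0 higher and 0 lower, with 5 at an unadjusted p under 0.05 (4 higher, 1 lower) and 0 called by DESeq2. Their median log2 fold change was 0.12. The smallest p was that of the stress sensor Gadd45b, at 296 to 1031 normalized counts in Ctrl and 540 to 5250 in βCat-GOF mice (log2 1.66, SE 0.54, edgeR adjusted p = 0.106). Of 19 mineralocorticoid-responsive and sodium transport genes, 13 had enough counts to be tested. EdgeR called 0 of them in either direction, 1 had an unadjusted p under 0.05 and DESeq2 called 0. That gene was Stk39, the SPAK kinase upstream of sodium-chloride cotransport (log2 0.37, SE 0.17, edgeR adjusted p = 0.241). The channel subunits Scnn1b and Scnn1g, classical aldosterone-regulated genes of the kidney, reached at most 14.5 and 1.58 normalized counts in any mouse.

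**Figure D5:**
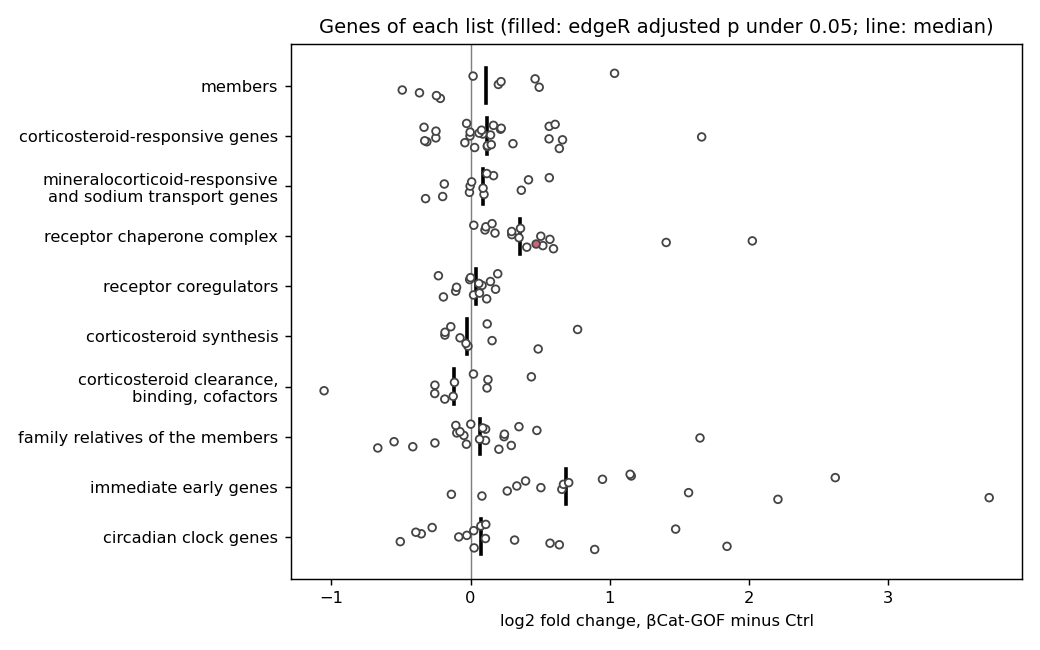
Log2 fold change of every tested gene of the 10 corticosteroid genes and of 9 lists around them, with a line at the median of each and filled points for an edgeR adjusted p under 0.05. All receptor chaperones lie above 0, the immediate early genes reach 3.73, and the only filled point is Hspa4.

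The coregulators that receptors recruit to chromatin, the enzymes that make corticosteroids and the enzymes and carriers that clear them were each at 0 calls by edgeR. Among 14 coregulators the median log2 fold change was 0.04, 2 had an unadjusted p under 0.05 and DESeq2 called 1, the histone deacetylase Hdac2 (log2 0.20, SE 0.07, edgeR adjusted p = 0.125). Among the 10 genes of corticosteroid synthesis the median was -0.03, 2 had an unadjusted p under 0.05 and DESeq2 called 1. That was Fdx1, the electron donor of mitochondrial steroid hydroxylases, at 8785 to 14430 normalized counts in Ctrl and 6645 to 27920 in βCat-GOF mice (log2 0.77, SE 0.26, edgeR adjusted p = 0.115). For Fdx1, 5 of 6 βCat-GOF mice were above every Ctrl mouse, and 1 was below all of them. Among 10 genes of clearance, binding and cofactor supply the median was -0.12, 1 had an unadjusted p under 0.05 and DESeq2 called that one. It was Srd5a2, a steroid 5α-reductase, at 1512 to 3296 normalized counts in Ctrl and 518 to 1885 in βCat-GOF mice (log2 -1.05, SE 0.30, edgeR adjusted p = 0.0694).

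Markers of the cell types that a whole adrenal holds moved as well. Beside the 4 of 8 zG markers, the zF marker Akr1b7 was higher (log2 1.49, SE 0.38, edgeR adjusted p = 0.0458), and it was the 1 of 6 zF markers that passed. Cyp11b1, which makes corticosterone, was at 232800 to 299400 normalized counts in Ctrl and 144000 to 348000 in βCat-GOF mice (log2 -0.18, edgeR adjusted p = 0.669). The macrophage markers Adgre1 (log2 -0.78, edgeR adjusted p = 0.0459) and Mrc1 (log2 -0.41, edgeR adjusted p = 0.0495) fell, 2 of 6, and of 4 lymphocyte markers tested Cd4 fell (log2 -1.35, edgeR adjusted p = 0.0330), from a mean of 24.2 to 9.49 normalized counts. These calls lay close to the threshold: the count changed in 20 of 21 alternative fits for macrophage markers (0 to 2 lower), in 14 of 21 for lymphocyte markers (0 to 1 lower) and in 15 of 21 for zF markers (0 to 4 higher). Summed levels were 1322 to 2026 CPM in Ctrl and 1785 to 3346 CPM in βCat-GOF mice for the zG list, and 28990 to 33850 against 22160 to 56040 CPM for the zF list. They were 213 to 349 against 190 to 311 CPM for macrophages and 3.88 to 5.88 against 1.89 to 5.10 CPM for lymphocytes, so the ranges overlapped for all 4. None of 3 X-zone, 7 medulla, 7 capsule and stroma, 6 endothelial and 6 adipocyte markers tested passed edgeR or DESeq2. At an unadjusted p under 0.05 edgeR gave 0 of the X-zone markers, 1 each of the medulla, stroma and adipocyte markers and 2 of the endothelial markers. No listed marker had 0 counts in all mice. By mouse, the zF sum was 50370, 56040 and 53400 CPM in βCat-GOF mice 3, 4 and 6, where Zbtb16 was high. It was 22160, 31300 and 36880 CPM in mice 1, 2 and 5, where Zbtb16 was not. Among Ctrl mice Zbtb16 was highest in mouse 1, whose zF sum of 31450 CPM was not the highest of the Ctrl mice. The zG sum was highest in βCat-GOF mice 1 and 2, at 3346 and 3111 CPM, as was Dusp1. The part of cell composition in the values of the 10 genes was not tested.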

How the data were processed

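Whole-adrenal RNA of 6 Ctrl and 6 βCat-GOF mice was sequenced as 12 libraries. The authors used cutadapt for adapter removal, STAR for alignment to mm10 and featureCounts to assign uniquely mapping reads to genes, and deposited the resulting raw counts of 39017 genes. The authors also deposited a signal table of counts divided by 1 factor a library, which served for gene symbols and a check of the factors (0.955 to 0.976 times those computed here). The annotation release and strand setting are not given in the sources used here. No column was left unmapped (0 columns).

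Counts were tested with edgeR 4.0.16 in R 4.3.3 (TMM, filterByExpr, two-sided quasi-likelihood test), with Benjamini-Hochberg adjustment over 14953 genes and a threshold of 0.05, and with DESeq2 1.42.0 as an alternative. The standard error is the log2 fold change divided by the square root of F. The study's own cut-offs asked for a base mean above 100 and a fold above 1.4 beside the adjusted p. Normalized counts are counts divided by DESeq2 size factors, log2 CPM has a prior count of 2, and lengths come from GENCODE M21. Single genes had an exact permutation test over 924 assignments (log2 of the normalized count + 1), and pairs of genes one with 100000 resamples. The edgeR step was tested on simulated counts.

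The 10 genes and all lists were chosen with earlier results of these data known. Named genes were the 10, in each list up to 3 with an adjusted p under 0.05 by size of change or else the 1 with the smallest p, the 3 most similar profiles of each member, and Ctnnb1. Hsp90aa1, Hspa1b, Fos, Junb, Btg2, Dnajb1, Hspa1a, Scnn1b, Scnn1g, Arntl, Npas2, Dbp, Tef, Nr4a1, Cyp11b1 and Cyp11b2 were named after their values were seen. In 3 pairs, libraries share the stem of their label. Their counts differed by 39.2 to 42.8 chi-square units per degree of freedom (other pairs of a group: 15.8 to 136), far more than sampling noise. Such values grow with library depth, and they cannot tell 2 mice from 2 samples of 1 mouse. All were kept as separate mice because the study counts 6 mice a group. For βCat-GOF mouse 1 the value was 39.2 with mouse 2 and 79.7 to 136 with the rest, and for mouse 2 it was 43.0 to 84.0 with mice 3 to 6. Litters are not given, so p-values measure the spread between these mice. Total counts set the precision, and 3 counts correspond to 0.117 to 0.223 CPM. Alternatives are listed with their effects in the closing section.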

Additional observations from a re-analysis of the deposited data

How the results depend on the processing

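The count of 0 corticosteroid genes called by edgeR in either direction held with DESeq2 size factors, with no filter on low counts, with at least 10 counts in every mouse, without the 3 mice whose label repeats a stem, with stem-sharing libraries added up, without the mouse labelled 1387 and in all 12 fits that leave out 1 mouse (range 0 to 0, the same for the cut-offs of the study). DESeq2 called 2 higher and gave 2 past the cut-offs. Without βCat-GOF mice 1 and 2, an alternative chosen after seeing the data, 1 was lower and 1 passed the cut-offs. It was Nr3c2, whose 2 highest βCat-GOF values lay in the mice left out. The cause was not tested. The fit without βCat-GOF mice 2 and 5, also chosen after seeing the data, again called 0.

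Over all genes, 323 higher, 228 lower and 352 past the cut-offs became 672, 561 and 641 with DESeq2, 905, 835 and 910 without βCat-GOF mice 1 and 2, and 203, 99 and 222 without mice 2 and 5. The lower genes numbered 346 without the 3 stem-repeating mice, 140 with stem-sharing libraries added up and 125 without the mouse labelled 1387. Leaving out 1 mouse gave 195 to 560 higher, 92 to 395 lower and 207 to 563 past the cut-offs, the lowest without Ctrl mouse 6 and the highest without βCat-GOF mouse 1.

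Directions held for 8 of the 10 genes under every alternative. The log2 fold change of Klf9 was -0.0523 without βCat-GOF mice 1 and 2 and -0.0278 without mice 2 and 5, and -0.0314 (without Ctrl mouse 6) to 0.0914 (without Ctrl mouse 3) with 1 mouse left out, below 0 also without Ctrl mouse 4 and without βCat-GOF mouse 2 or 3. That of Hsd11b2 was 5.81e-05 without the stem-repeating mice. The 3 pair correlations with the smallest p were those of Hsd11b2 with Sgk1, Nr3c2 with Sgk1 and Nr3c1 with Zbtb16. They kept their sign and stayed above an adjusted p of 0.05 on the other log scale and without the farthest mice. At least 10 counts in every mouse left no value for Hsd11b2. No paired analysis was possible because the labels give the groups no shared replicate numbers. Hsd11b2 had the fewest counts of the 10 genes.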

Other observations

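Relatives of the 10 genes gave no call by edgeR. Of 21 tested relatives (other nuclear receptors, TSC22, SGK, FKBP, Krüppel-like, BTB zinc finger and DUSP family genes), edgeR called 0 higher and 0 lower, 5 had an unadjusted p under 0.05 (3 higher, 2 lower) and DESeq2 called 1 higher and 2 lower. The median log2 fold change was 0.07. Tsc22d1, the founding member of the family of Tsc22d3, had the smallest p. It was at 26070 to 35810 normalized counts in Ctrl and 16580 to 24760 in βCat-GOF mice, so that the groups did not overlap, with a log2 fold change of -0.41 (SE 0.12) that passed in DESeq2 (adjusted p = 0.00990) and not in edgeR (adjusted p = 0.0662).

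Circadian clock genes, several of which glucocorticoids act on, gave 0 calls of 17 by edgeR in either direction, 3 at an unadjusted p under 0.05 and 0 by DESeq2, with a median log2 fold change of 0.07. Nfil3, a repressor of the clock output, had the smallest p (log2 1.47, SE 0.48, edgeR adjusted p = 0.111) and was at 1709 and 1244 normalized counts in βCat-GOF mice 2 and 5 and at 108 to 305 in Ctrl mice. Arntl, of the positive limb of the clock, was at 344, 373, 798 and 703 normalized counts in βCat-GOF mice 3 to 6, above the Ctrl maximum of 323, and within the Ctrl range in mice 1 and 2. Its relative Npas2 was at 219 in mouse 5, where Ctrl mice reached at most 23.3. The output gene Tef was at 3945, 3808, 1495 and 3595 in mice 3 to 6, below the Ctrl minimum of 4448. Dbp was below the Ctrl minimum of 3257 in mice 5 and 6, at 1464 and 2473. In mouse 5, the one labelled 1387, Zbtb16 was at 128, Nr3c2 at 294 and Fkbp5 at 1723 normalized counts, in each case the lowest of the βCat-GOF mice. What part these differences in clock genes have in the values of the 10 genes was not tested.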
